A study of Mus musculus with 4 samples.

Results

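Vascular endothelial growth factor A, its receptors, the angiopoietin-Tie pair of signals and receptors, and 3 endothelial markers were followed in sorted mouse kidney cells. The group holds 10 genes given by symbol: Vegfa, Kdr, Flt1, Pecam1, Cdh5, Tek, Tie1, Angpt1, Angpt2 and Emcn. All 10 were found among the 52636 gene identifiers of the count files, and all 10 passed the filter on low counts that left 18172 genes for testing. RNA was sequenced from cells of the kidney purified by fluorescence-activated sorting, in 2 control libraries and 2 libraries labelled Brg1-cKO, each made from 3000 cells. By usual usage the name means a conditional knockout of Brg1, the ATPase of SWI/SNF chromatin remodelling complexes, encoded by Smarca4. For both groups, neither the strain nor the age, the marker used for sorting, the floxed allele or the Cre driver is given in the sources used here. Whether the 2 libraries of each group are from different animals is not stated, and the spread behind every p-value here may be purely technical.

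Endothelial cells line blood vessels, and in the growing kidney they form the capillaries of the glomerulus. Vegfa is a secreted signal made by epithelia such as the podocytes of the glomerular filter. It acts on endothelial cells through the receptor tyrosine kinase Kdr (VEGFR2), while Flt1 (VEGFR1) binds the same ligand tightly and limits how much reaches Kdr. Angpt1 activates the endothelial receptor Tek (Tie2) and steadies vessels, Angpt2 can oppose it, and Tie1 is a relative of Tek that modulates it. Pecam1 and Cdh5 (VE-cadherin) are adhesion proteins of endothelial junctions, and Emcn (endomucin) is a sialomucin of the endothelial surface.

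Gene counts summed to 35411905 and 37999342 in the controls, against 14645665 and 10922272 for Brg1-cKO. Uniquely aligned reads outside every counted feature were 15.4% to 16.5% of the unique alignments in the controls and 49.5% to 57.2% in Brg1-cKO. The controls had a biological coefficient of variation of 0.173 and the Brg1-cKO libraries one of 1.11, so over all genes the Brg1-cKO pair was the wider one. Smarca4, the targeted gene, was at 897.9 and 937.2 CPM (read counts scaled to a common library size) in the controls and 760.1 and 691.2 CPM in Brg1-cKO, a log2 fold change of -0.34 (SE 0.09, adjusted p = 0.167 in edgeR). Counts over the whole gene do not show which exons were lost, so this is only a partial check of the labels. Why Smarca4 reads remain in Brg1-cKO was not tested. The X-linked Xist stood at 243.8 and 216.5 CPM in control against 836.0 and 1205 CPM in Brg1-cKO. The Y-linked Ddx3y was at 75.96 and 78.75 CPM in control against 1.05 and 3.27 CPM in Brg1-cKO. Both controls thus held reads of both genes, while Ddx3y was low in Brg1-cKO. Whether the controls mix cells of both sexes was not tested. Sex and genotype cannot be told apart in any comparison here. Of the markers of cells that the sort could hold, Six2 and Sall1 of nephron progenitors and Col1a1 of stroma were present in all 4 libraries. The globin genes Hba-a1 and Hba-a2 had 0 counts in all 4, which allows up to 3 counts per library, and Hbb-bs and Hbb-bt had at most 3.

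On mm10, with GENCODE M21 annotation, Vegfa (ENSMUSG00000023951) lies at chr17:46016993-46032369, Flt1 (ENSMUSG00000029648) at chr5:147561604-147726011 and Kdr (ENSMUSG00000062960) at chr5:75932827-75978458, all on the minus strand. Angpt1 (ENSMUSG00000022309) lies at chr15:42424723-42676977 and Angpt2 (ENSMUSG00000031465) at chr8:18690263-18741562, both on the minus strand. Tek (ENSMUSG00000006386) lies at chr4:94739289-94874976 on the plus strand and Tie1 (ENSMUSG00000033191) at chr4:118471191-118490061 on the minus strand. Pecam1 (ENSMUSG00000020717) lies at chr11:106654217-106750628 on the minus strand, Cdh5 (ENSMUSG00000031871) at chr8:104101625-104144511 and Emcn (ENSMUSG00000054690) at chr3:137341067-137432185, both on the plus strand. All 10 are protein-coding. Only Angpt1 among them shares exon sequence with another annotated gene, the antisense Gm17473, and whether the counting used strand is not known. The values below count reads over whole genes, so isoforms such as soluble Flt1 are not separated.

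Promoter sequence is shown for Vegfa, whose level was higher in both Brg1-cKO libraries, and for 4 of the endothelial genes that lay lower together. Each run is the 250 bases before the RefSeq start (GRCm38.p6, the same assembly as mm10), written 5′ to 3′ on the gene's strand. For Vegfa, which has 2 listed starts, only the first listed is shown and searched. Capitals mark GGAA, or TTCC where the motif lies on the other strand, the core of sites bound by ETS factors such as Erg and Fli1. The runs lie at chr17:46032378-46032627 (minus strand), chr5:75978456-75978705 (minus), chr5:147726012-147726261 (minus), chr4:94739039-94739288 (plus) and chr3:137340828-137341077 (plus).

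Vegfa: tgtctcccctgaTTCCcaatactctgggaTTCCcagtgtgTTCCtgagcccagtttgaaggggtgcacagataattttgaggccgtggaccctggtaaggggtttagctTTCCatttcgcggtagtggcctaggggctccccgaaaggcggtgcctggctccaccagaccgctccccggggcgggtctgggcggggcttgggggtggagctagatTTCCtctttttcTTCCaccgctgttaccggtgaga

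Kdr: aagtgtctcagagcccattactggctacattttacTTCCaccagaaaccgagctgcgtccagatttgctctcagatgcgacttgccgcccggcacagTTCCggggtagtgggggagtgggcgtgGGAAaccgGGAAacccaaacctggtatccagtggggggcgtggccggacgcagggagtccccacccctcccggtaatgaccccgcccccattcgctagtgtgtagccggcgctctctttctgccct

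Flt1: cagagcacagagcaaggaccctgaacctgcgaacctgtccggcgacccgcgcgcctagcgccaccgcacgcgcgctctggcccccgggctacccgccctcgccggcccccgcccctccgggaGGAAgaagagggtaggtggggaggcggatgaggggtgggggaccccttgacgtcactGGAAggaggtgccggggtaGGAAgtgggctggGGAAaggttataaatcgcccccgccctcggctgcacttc

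Tek: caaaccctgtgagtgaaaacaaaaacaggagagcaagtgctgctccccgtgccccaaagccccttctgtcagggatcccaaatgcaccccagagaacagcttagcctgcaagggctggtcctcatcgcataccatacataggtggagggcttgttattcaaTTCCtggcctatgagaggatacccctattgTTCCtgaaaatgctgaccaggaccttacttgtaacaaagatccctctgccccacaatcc

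Emcn: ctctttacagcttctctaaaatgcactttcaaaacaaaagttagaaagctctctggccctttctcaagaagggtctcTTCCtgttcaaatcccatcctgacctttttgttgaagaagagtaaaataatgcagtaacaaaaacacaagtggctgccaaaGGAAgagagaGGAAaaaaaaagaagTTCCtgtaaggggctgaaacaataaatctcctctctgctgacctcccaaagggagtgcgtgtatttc

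Of the 10 genes, 6 matched the RefSeq promoter table. Pecam1, Cdh5, Angpt1 and Angpt2 did not. The core GGAA, searched on both strands, occurred 6 times upstream of Vegfa, 4 times upstream of Kdr, Flt1 and Emcn, 7 times upstream of Tie1 and 2 times upstream of Tek. Over all 32851 promoter windows of this length 93.4% held it at least once and the median was 3 matches. The share with 4 or more was 33.4% and with 6 or more 8.69%. The GC box GGGCGG occurred 2 times upstream of Vegfa and Kdr, 3 times upstream of Flt1 and nowhere in the windows of Tek, Tie1 and Emcn. It was found in 32.7% of all windows, and its matches shared 0 bases with those of GGAA in these 6. The hypoxia element core ACGTG was in none of the 6 windows and in 16.6% of all. Sequence outside the 250 bases was not searched, so this does not show that a gene lacks such an element. A match is a description of the letters and not a binding site.

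Vegfa was the most abundant of the 10 genes per length and the one that stood higher in Brg1-cKO beyond the spread of either group. It was at 222.4 and 229.9 CPM in the controls and at 354.8 and 471.3 CPM in Brg1-cKO. Both Brg1-cKO libraries lay above both controls, and the gap between groups exceeded the gap within either. The log2 fold change was 0.87 (SE 0.18), or 1.83-fold. It had an unadjusted p = 0.00864 in edgeR's quasi-likelihood test and an adjusted p = 0.166 over all genes, so it did not pass the threshold of 0.05.

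The 7 receptors and markers of endothelial cells lay below control in both Brg1-cKO libraries, without overlap. Their summed level was 581.5 and 587.8 CPM in the controls and 282.2 and 172.3 CPM in Brg1-cKO, 2.57 times higher in control on average. Angpt1 was lower as well, and Angpt2 was at control level. Over the 10 genes, 8 were lower and 1 higher without overlap between the groups. Among all tested genes 34.5% lay lower without overlap and 17.5% higher, and among tested genes with a mean of at least 5 CPM, as all 10 had, 25.8% and 22.7%. The median log2 fold change was -1.44 over the 10 genes and -0.06 over all genes tested.

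With edgeR's quasi-likelihood test, none of the 10 had an adjusted p under 0.05, nor had any other gene (0 of 18172, or 0%). At an unadjusted p under 0.05 there were 988 higher and 2340 lower genes. Among them were 5 members on the lower side, Pecam1, Cdh5, Flt1, Tek and Angpt1, where the share of all genes was 12.9%. Vegfa was the 1 member on the higher side, where the share was 5.44%. DESeq2, which called 2021 genes, called Vegfa as higher, where it called 6.58% of genes, and Pecam1, Cdh5, Tek and Angpt1 as lower, where it called 4.09%. With a single Brg1-cKO library, assumed to vary like the controls, edgeR called 9 of the 10, all but Angpt2. It then called 24.6% of genes higher and 30.9% lower without replicate 1, and 23.9% and 36.6% without replicate 2. With the replicate number as a block, Vegfa was called among 0.616% of genes on the higher side and Kdr and Cdh5 among 0.242% on the lower side. The replicate numbers are not known to pair libraries, so these block calls carry little weight. In bulk libraries, fewer endothelial cells in the sort and less of these RNAs per cell cannot be told apart.

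**Figure D1:**
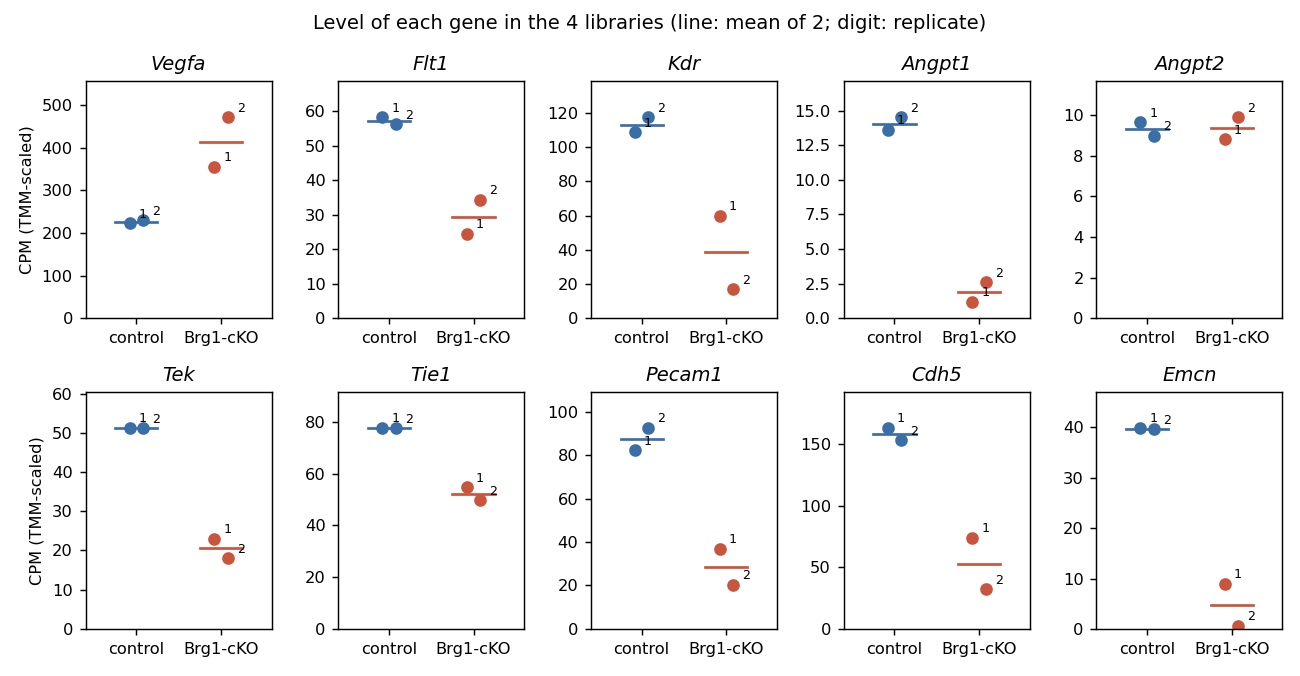
Level of each of the 10 genes in CPM (linear axes from 0) in the control (blue) and Brg1-cKO (red) libraries, where points are single libraries numbered by replicate and lines are means of 2. Vegfa is higher in both Brg1-cKO libraries, Angpt2 overlaps, and the other 8 genes are lower in both.

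Of the Vegf receptors, Kdr had the wider spread. Kdr was at 108.7 and 117.5 CPM in the controls and at 59.96 and 17.00 CPM in Brg1-cKO replicates 1 and 2. Both Brg1-cKO values lay below both controls, but replicate 1 was 3.53 times replicate 2. The log2 fold change was -1.55 (SE 0.67, adjusted p = 0.356 in edgeR). Flt1 was at 58.27 and 56.17 CPM in the controls and at 24.46 and 34.38 CPM in Brg1-cKO. Here replicate 2 was the higher of the pair, the reverse of Kdr. The log2 fold change was -0.96 (SE 0.31, adjusted p = 0.225 in edgeR).

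Per length, the ratio of Flt1 to Kdr was 0.359 and 0.320 in the controls, 0.273 in Brg1-cKO replicate 1 and 1.35 in replicate 2. The library with the least Kdr thus held more Flt1 than Kdr per length, and the groups overlapped in this ratio. Vegfa stood in a higher ratio to both receptors in Brg1-cKO. Per length, Vegfa to Flt1 was 12.03 and 12.9 in control and 45.7 and 43.2 in Brg1-cKO. Vegfa to Kdr was 4.31 and 4.12 in control and 12.5 and 58.4 in Brg1-cKO. The ratio of 2 genes within a library does not depend on how libraries were scaled.

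The angiopoietins differed from each other. Angpt1 was at 13.61 and 14.52 CPM in the controls and at 1.19 and 2.62 CPM in Brg1-cKO, where it rested on 17 and 28 reads. Both Brg1-cKO values lay far below the controls, and the exact 95% Poisson intervals of 0.692 to 1.90 and 1.74 to 3.78 CPM, which cover counting error only, stay below the control values. The log2 fold change was -2.89 (SE 0.96, adjusted p = 0.237 in edgeR), or 7.39 times less than control. Angpt2 was at 9.64 and 8.998 CPM in the controls and at 8.80 and 9.90 CPM in Brg1-cKO. These groups overlapped, and the log2 fold change was 0.01 (SE 0.73, adjusted p = 0.998 in edgeR). Its SE is wide enough that a moderate difference either way was not detectable.

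Per length, the ratio of Angpt2 to Angpt1 was 0.999 and 0.874 in control, close to equal, and 10.5 and 5.34 in Brg1-cKO. Both Brg1-cKO libraries thus held several times more Angpt2 than Angpt1. Because of the antisense gene at Angpt1, its value would hold antisense reads or lose shared ones if strand was ignored in counting.

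Tek and Tie1, the receptors of this pathway, gave tight values in both groups. Tek was at 51.26 and 51.21 CPM in the controls and at 22.99 and 18.03 CPM in Brg1-cKO, a log2 fold change of -1.32 (SE 0.31, adjusted p = 0.166 in edgeR). Tie1 was at 77.67 and 77.59 CPM in the controls and at 54.79 and 49.70 CPM in Brg1-cKO, a log2 fold change of -0.57 (SE 0.21, adjusted p = 0.283 in edgeR). Tie1 had the smallest difference among the 7 endothelial genes. Per length, Tie1 to Tek was 1.45 in both controls and 2.28 and 2.64 in Brg1-cKO, so within each Brg1-cKO library more Tie1 was left for each Tek than in control.

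**Figure D2:**
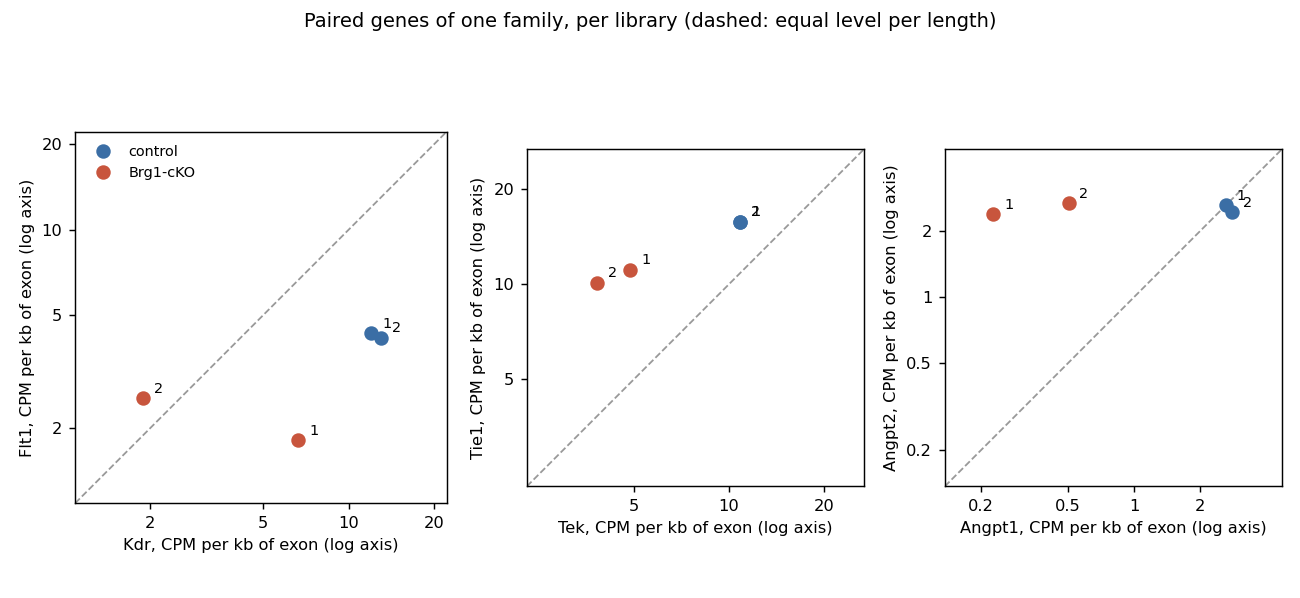
Level per kb of exon (CPM per kb, log axes) of Flt1 against Kdr, Tie1 against Tek and Angpt2 against Angpt1 in each library, control in blue and Brg1-cKO in red with replicate numbers. The control points nearly coincide, Tie1 to Tek and Angpt2 to Angpt1 are above control in both Brg1-cKO libraries, and Flt1 to Kdr goes opposite ways in the 2 Brg1-cKO libraries.

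Among the surface markers, the 2 junction proteins kept a similar ratio in all libraries. Pecam1 was at 82.36 and 92.50 CPM in the controls and at 36.90 and 20.36 CPM in Brg1-cKO, a log2 fold change of -1.61 (SE 0.38, adjusted p = 0.166 in edgeR). Cdh5 was at 163.4 and 153.3 CPM in the controls and at 74.14 and 32.14 CPM in Brg1-cKO, a log2 fold change of -1.57 (SE 0.46, adjusted p = 0.203 in edgeR). Per length, Cdh5 to Pecam1 was 2.94 and 2.46 in control and 2.98 and 2.34 in Brg1-cKO, an overlapping range. Emcn was at 39.88 and 39.57 CPM in the controls and at 8.94 and 0.654 CPM in Brg1-cKO. Its Brg1-cKO values rested on 128 and 7 reads, and replicate 1 was 13.7 times replicate 2. The log2 fold change was -3.04 (SE 1.31, adjusted p = 0.357 in edgeR). Per length, Emcn to Pecam1 was 0.558 and 0.493 in control and 0.279 and 0.0370 in Brg1-cKO, lower in both.

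Brg1-cKO replicate 2 was the lower library for Kdr, Pecam1, Cdh5, Tek, Tie1 and Emcn and the higher one for Vegfa, Flt1, Angpt1 and Angpt2. The median difference between the Brg1-cKO libraries was 0.60 on the log2(CPM + 1) scale over the 10 genes and 0.75 over the 12060 tested genes with a mean of at least 5 CPM. Between the controls it was 0.07 and 0.10.

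In order of level per length in control, Vegfa came first with 52.8 CPM per kb of exon, then Cdh5 with 37.7, Tie1 with 15.8, Pecam1 with 14.0, Kdr with 12.5, Tek with 10.9, Emcn with 7.34, Flt1 with 4.24, Angpt1 with 2.70 and Angpt2 with 2.53. No neighbours in this order overlapped between the 2 controls, although Angpt1 and Angpt2 came close, at 2.62 and 2.79 against 2.61 and 2.44. In Brg1-cKO the order began with Vegfa at 96.4, Cdh5 at 12.6 and Tie1 at 10.6 CPM per kb. Angpt1 came last at 0.365. There the neighbours overlapped except between Vegfa and Cdh5, Tie1 and Pecam1, and Flt1 and Emcn.

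The other genes of the Vegf and angiopoietin pathway were mixed. Of the 10 further genes listed, 9 passed the filter, 4 were higher and 5 lower, and 0 passed the adjusted threshold. Their median log2 fold change was -0.07, beside -0.06 over all genes tested. Vegfb, a ligand of Flt1, was at 58.66 and 55.67 CPM in control and at 72.75 and 60.53 CPM in Brg1-cKO (log2 fold change 0.22, SE 0.23, adjusted p = 0.716 in edgeR). Flt4 (VEGFR3), the receptor for Vegfc and Vegfd, was at 57.52 and 57.59 CPM in control and at 15.58 and 21.11 CPM in Brg1-cKO. Its log2 fold change was -1.65 (SE 0.32, adjusted p = 0.166 in edgeR), close to those of Kdr and Pecam1.

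Vegfc had a log2 fold change of 0.23 (SE 0.50), with values of 20.60 and 14.05 CPM in control that bracketed Brg1-cKO replicate 1. Vegfd was at 11.18 and 12.19 CPM in control and at 2.38 CPM in Brg1-cKO replicate 1, with 0 counts in replicate 2. Pgf, the placental growth factor that binds Flt1, was at 11.96 and 9.34 CPM in control and at 26.07 and 2.06 CPM in Brg1-cKO, on both sides of control. The co-receptors Nrp1 and Nrp2 also overlapped between groups, with log2 fold changes of -0.07 (SE 0.28) and -0.64 (SE 1.06). Nrp2 was at 53.63 and 50.18 CPM in control, with Brg1-cKO replicate 1 below at 6.92 CPM and replicate 2 above at 59.88 CPM. Neuropilins are also used by other cell types.

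On the Tie side, Ptprb (VE-PTP), the phosphatase that acts on Tek, was at 24.71 and 23.78 CPM in control and at 7.76 and 4.11 CPM in Brg1-cKO, a log2 fold change of -2.03 (SE 0.64, adjusted p = 0.217 in edgeR). Svep1, an extracellular matrix protein that binds Tie1, was at 26.61 and 31.56 CPM in control and 54.02 and 27.00 CPM in Brg1-cKO, with overlap. Angpt4, a further Tek ligand, had 43 and 8 reads in control and 0 and 1 in Brg1-cKO, too few to be tested.

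A wider list of 34 endothelial genes, 7 of them among the 10, was lower in 32 members (31 with RLE scaling) and higher in 2, with a median log2 fold change of -1.36 beside -0.06 over all genes. In 27 of the 34 both Brg1-cKO libraries lay below both controls, against 34.5% of all genes tested. Without the 7, it was 25 of 27 lower, 20 of them without overlap, and a median of -1.32. None passed the adjusted threshold. The summed level of the 34 was 1329 and 1339 CPM in control and 750.5 and 588.2 CPM in Brg1-cKO, where the exact two-sided permutation test over the libraries gave p = 0.333, the smallest that 2 against 2 allow.

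Of the further endothelial genes highest in CPM, Cd93, a surface lectin of endothelium, was at 64.78 and 71.83 CPM in control and 9.99 and 17.56 CPM in Brg1-cKO (log2 fold change -2.31, SE 0.41). Eng (endoglin, a TGF-beta co-receptor) was at 64.87 and 61.09 CPM in control and 42.63 and 20.18 CPM in Brg1-cKO. For Aplnr, the apelin receptor, the log2 fold change was -0.89 (SE 0.59), and for Ramp2, a partner of the adrenomedullin receptor, -0.87 (SE 0.63). Plvap, the diaphragm protein of fenestrated capillaries, was at 93.15 and 92.34 CPM in control and at 100.1 and 49.23 CPM in Brg1-cKO, so its groups overlapped. Cldn5 stood above control in both Brg1-cKO libraries. This tight junction claudin of endothelium, which podocytes also make, was at 62.86 and 68.43 CPM in control and 123.3 and 159.3 CPM in Brg1-cKO, a log2 fold change of 1.11 (SE 0.22, adjusted p = 0.166 in edgeR).

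Of the 6 endothelial transcription factors of the list, described after their values were seen, 5 were lower without overlap and Sox18 overlapped. Among all genes tested, 34.5% lay lower without overlap. Sox7 was at 15.32 and 14.44 CPM in control and had 0 counts in each Brg1-cKO library, so with a floor of 3 counts for the pair the log2 fold change is at most -6.95. Erg and Tal1 had 0 counts in Brg1-cKO replicate 1 and 39 and 17 counts in replicate 2. Sox18 was at 11.10 and 8.89 CPM in control, and in Brg1-cKO at 23.34 CPM in replicate 1 (334 counts), above both controls, with 0 counts in replicate 2. Fli1 was at 26.36 and 27.85 CPM in control and at 15.79 and 4.76 CPM in Brg1-cKO, and Sox17 at 5.98 and 6.56 CPM against 3.21 and 2.90 CPM. The adhesion receptor Adgrl4 had 0 and 231 counts in Brg1-cKO. Of the 34 genes, 3 had 0 counts in 1 Brg1-cKO library and at least 30 in the other. Among the 11610 genes with a control mean of at least 5 CPM, 2.70% did.

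**Figure D3:**
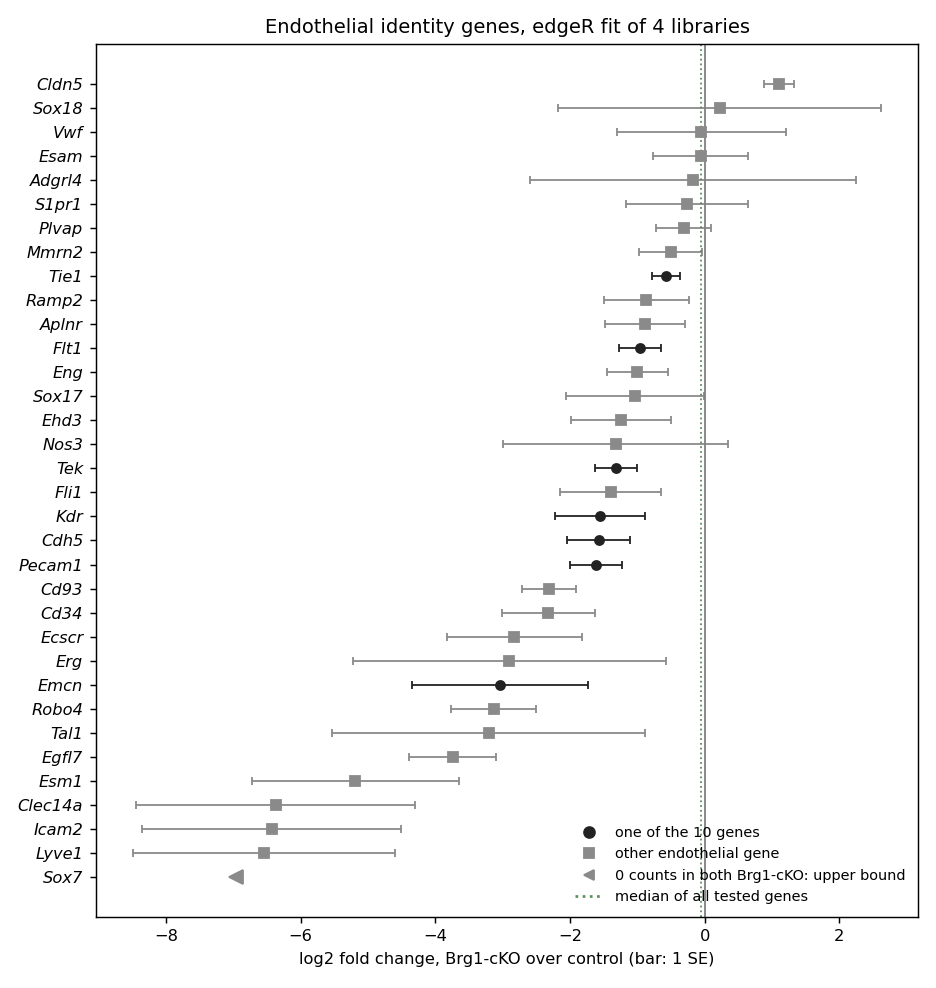
Log2 fold change of Brg1-cKO over control with 1 SE (bars) for the 34 endothelial identity genes, the 7 that belong to the 10 genes as black circles and the others as grey squares. All but Cldn5 and Sox18 lie below 0, and the triangle marks Sox7 at its bound of -6.95.

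Marker genes of other cell types differed between the groups too. For scale, 9625 of all 18172 genes tested were lower in Brg1-cKO and 8546 higher. Mural cell genes, of the pericytes and smooth muscle around vessels, were lower in 7 of 10, with a median log2 fold change of -1.07 and summed levels of 689.8 and 739.8 CPM in control and 532.9 and 436.6 CPM in Brg1-cKO. Of those highest in CPM, Notch3 (a pericyte receptor) had -0.76 (SE 0.24), Des (desmin) -0.36 (SE 0.21) and Cspg4 (the proteoglycan NG2) 0.58 (SE 0.20). That order is by the mean over all 4 libraries. Pdgfrb, the pericyte receptor for PDGF-B, added after its values were seen, was above Des and Cspg4 in control, at 137.1 and 148.9 CPM. In Brg1-cKO it was at 75.05 and 11.49 CPM, a log2 fold change of -1.72 (SE 0.94, adjusted p = 0.466 in edgeR). Stromal genes were lower in 8 of 8, with sums of 2594 and 2546 CPM against 1260 and 1192 CPM. Immune genes were lower in 9 of 10, 7 of them without overlap, with sums of 160.6 and 158.8 CPM against 62.68 and 93.60 CPM. Ureteric bud genes were lower in 7 of 8, with sums of 293.0 and 287.0 CPM against 170.8 and 185.4 CPM, with Calb1 and Wnt9b at 0 counts throughout Brg1-cKO. No gene of these lists passed the adjusted threshold, and their part in the lower endothelial levels was not tested.

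Podocyte genes, markers of a cell type that makes Vegfa, were higher in 10 of 10 with a median log2 fold change of 2.07. Of all 18172 genes tested, 8546 were higher. Their summed level was 969.6 and 985.8 CPM in control and 3399 and 3172 CPM in Brg1-cKO, 3.36 times higher on average, against 1.83-fold for Vegfa. Podxl alone gave 1755 and 1359 CPM of the Brg1-cKO sums. By gene, named after their values were seen, the fold ran from 1.17 (Tcf21, with overlapping groups) and 1.74 (Wt1) to 7.97 (Nphs1). Podxl, the gene compared next, was at 5.55-fold, so its ratio to Vegfa does not stand for every podocyte gene. Per length, the ratio of Vegfa to the podocyte sialomucin gene Podxl was 1.02 and 1.05 in the controls and 0.259 and 0.444 in Brg1-cKO. Podxl is also made by endothelial cells. The part of the podocyte level in the Vegfa value was not tested. Nephron progenitor genes had 3 of 7 higher and a median of -0.01, with sums of 1016 and 981.9 CPM in control and 1095 and 1044 CPM in Brg1-cKO.

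Genes of the hypoxia response, to which Vegfa belongs in many cells, lay on both sides of control. Of 12 such genes, 4 were higher, 3 of them without overlap, and 8 lower, 5 of them without overlap, with a median log2 fold change of -0.41. Over all genes tested, 17.5% lay higher without overlap and 34.5% lower, so these counts do not set the list apart. The one highest in CPM, Ldha, was at 360.5 and 346.8 CPM in control and 244.7 and 212.8 CPM in Brg1-cKO, a log2 fold change of -0.63 (SE 0.13). Slc2a1, the glucose transporter, had -0.64 (SE 0.24), and Pgk1 -0.19 (SE 0.32). The 3 higher without overlap, named after their values were seen, were Adm (adrenomedullin, a vasodilator peptide) with 1.73 (SE 0.75), Bnip3 (a mitochondrial protein of mitophagy) with 1.16 (SE 0.77) and Higd1a (a mitochondrial protein) with 0.99 (SE 0.34), each above the 0.87 of Vegfa. Their adjusted p in edgeR was 0.351, 0.559 and 0.252. Lower without overlap, besides Ldha and Slc2a1, were Car9, Egln3 and Ndrg1, also named after their values were seen. Egln3 had -3.01 (SE 2.29), with 0 and 41 counts in Brg1-cKO, and Ndrg1 had -1.48 (SE 0.93). Car9 was at 2.99 and 2.93 CPM in control and had 0 counts in each Brg1-cKO library, a log2 fold change of at most -4.625. Of the platelet genes 3 of 5 were tested, 2 of them lower, with Pf4 at 4.47 and 3.84 CPM in control and at 0 and 9.53 CPM in Brg1-cKO. Of the red cell genes only Alas2 was tested, with at most 0.654 CPM in any library.

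**Figure D4:**
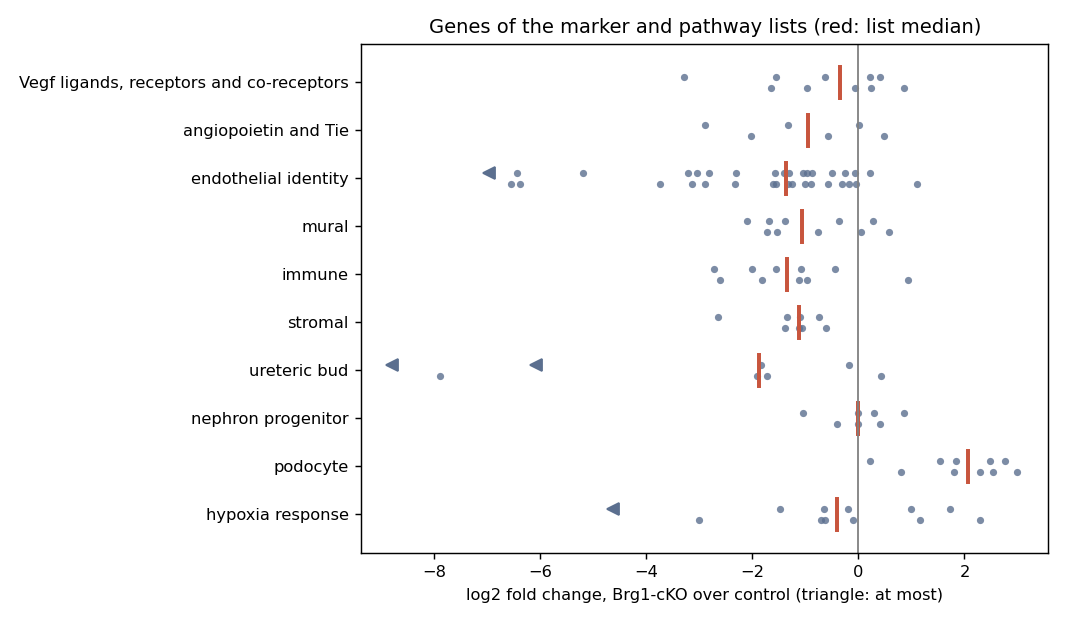
Log2 fold change of Brg1-cKO over control for the tested genes of 10 lists (points), with list medians in red and triangles at the bound of genes without any count in Brg1-cKO. The endothelial median is -1.36, the podocyte median 2.07, and the Vegf list spans both sides of 0.

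Patterns over the 4 libraries were compared among 10266 genes with a mean of at least 10 CPM, by the root mean square difference of centred log2(CPM + 1). The nearest to Vegfa were Glt8d1 (0.0408), Sh3bgrl2 (0.0412) and Tmub2 (0.0425). Sh3bgrl2 was at 29.57 and 28.47 CPM in control and 47.24 and 63.43 CPM in Brg1-cKO. The nearest to the sum of the 7 endothelial genes were Cdkn2aip (0.0253), Sipa1 (0.0471) and Klf16 (0.0528). With 4 libraries many genes share such a pattern, and the likeness is a description only.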

How the data were processed

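The data are RNA-seq of 4 libraries from sorted cells of mouse kidney, put into control (2) and Brg1-cKO (2) by their sample titles. Per the labels' protocols, mRNA was purified with beads and strand-specific random-primed libraries were read as single ends of 75 bp. The deposited values are raw counts of reads per gene, ending in lines for reads without a gene, which were left out (31.8% to 32.4% of reads in control, 65.5% and 72.1% in Brg1-cKO). Per the submitters' processing notes, mm10, TopHat and DESeq2 were used. Which counter and annotation were used, and whether strand was, is not given in the sources used here.

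Of 52636 identifiers 52403 were matched to a symbol. All genes were fitted together in R 4.3.3 by edgeR 4.0.16 (TMM, default filter with minimum count 10, robust quasi-likelihood F test, group as the only term), with Benjamini-Hochberg adjustment at 0.05. CPM use TMM-scaled library sizes. The SE is the log2 fold change over the root of F. A count of 0 allows 3 counts, which is 0.0778 to 0.280 CPM over the 4 libraries. Reads carry no molecular identifiers, so such floors and intervals cover counting error only. Levels between genes were compared per kb of merged exons.

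The 10 genes and the lists were chosen with earlier results of these data known. Named genes are the 10, Smarca4, the pathway lists, the 6 most abundant further endothelial genes, genes among the 3 most abundant of each other list, and the nearest patterns. Exceptions are marked. Alternatives were DESeq2 1.42.0, other scalings and filters, a replicate block and each library left out. The correlation of same-numbered deviations was -0.02, so the numbers were not taken to pair libraries.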

Additional observations from a re-analysis of the deposited data

Results flagged for a closer look

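Uniquely aligned reads outside every counted feature were 53.4% of unique alignments in Brg1-cKO (SD 5.47, n = 2) and 15.9% (SD 0.771, n = 2) in control. These reads are outside the gene counts, and none of the values of the 10 genes use them. Whether their source also added reads to the gene counts was not tested. Groups of 2 libraries are too small to single out a library as far from the others.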

How the results depend on the processing

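Of the 10 genes, 9 kept their direction under all 10 alternatives, and Angpt2, whose groups overlap, turned to a log2 fold change of -0.036 with total gene counts as library size, -0.029 with no filter on low counts and -0.102 to 0.060 with 1 library left out. With a filter of 10 CPM in 2 libraries Angpt2 was not tested. Genes past an adjusted p of 0.05 numbered 0 with edgeR and the other scalings and filters, and 2021 with DESeq2, of which 1247 were higher and 774 lower. The replicate block gave 156, of which 112 were higher and 44 lower, among them Vegfa (adjusted p = 0.0352), Kdr (0.0352) and Cdh5 (0.00951). Its numbers are not known to pair libraries, as the correlation of their deviations was -0.02.

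Leaving out 1 library gave from 16 to 13262 calls, with 12 to 5454 higher and 3 to 8019 lower. The high counts came without a Brg1-cKO library, where the remaining one was assumed to vary like the controls. There 9 of the 10 genes were called, all but Angpt2. Without Brg1-cKO replicate 1 the log2 fold change of Kdr was -2.76, of Cdh5 -2.33 and of Emcn -5.94, and without replicate 2 they were -0.94, -1.11 and -2.17.

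The endothelial list had 29 to 33 of 34 members on the lower side, and 25 of the 27 tested with the filter of 10 CPM. Its median was -1.75 with the replicate block and -1.26 to -1.96 with 1 library left out. The median of the whole Vegf and angiopoietin list, -0.61, was -0.55 with RLE scaling, -0.65 with total counts, -0.68 with no filter, -0.58 with DESeq2, -0.78 with the block and -0.61 to -0.94 with 1 library left out. The cause was not tested. Emcn, Angpt1 and Angpt2 rest on 7 to 128 reads in each Brg1-cKO library, which limits their precision there.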
